A study of Chlamydomonas reinhardtii with 8 samples.

Results

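Of the 10000 oligonucleotide probes of an array for the green alga Chlamydomonas reinhardtii, 11 (0.11%) lay in the dimmer part of the signal range on every control array and among the brightest on every heat shock array. They were chosen by percentile rank within each array, where 100 is the brightest probe, with a rank below 50 on all 4 control arrays and of at least 90 on all 4 heat shock arrays. These ranks compare the 2 temperatures, so the ranks, levels and differences of the 11 probes are a description of what chose them and no test is given for them. A rank orders probes within an array and does not depend on how arrays are scaled to each other. The brightness of 2 different probes also depends on how well each hybridises, so a rank is no measure of a transcript's number of copies.

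Whole cells of the laboratory strain CC-124 were grown with acetate (TAP medium) at 23 °C. The heat shock cultures were then shaken in light at 42 °C for 45 min, and the control cultures stayed in light at 23 °C. Total RNA was labelled with Cy3 and hybridised to 8 one-colour Agilent arrays, 4 per group, all on 1 slide. In the values below, n counts arrays. The labels do not say whether a given culture had been kept in darkness or in light beforehand. The study's design text counts 3 biological replicates where each group has 4 numbered arrays, so some of the spread between arrays may be technical, and no label ties an array to its culture.

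In Chlamydomonas, as in other eukaryotes, heat activates heat shock transcription factors, which bind the promoters of genes for chaperones and other protective proteins. Messages of some of these genes are scarce in unstressed cells and can become abundant soon after a temperature rise, while many messages of growth and photosynthesis decline. Whether any of the 11 probes reports such a gene is not known. The 11 probes are those whose brightness moved from the lower ranks to the top ranks on every array of the 2 groups. None of them can be given a gene here: all probe descriptions in the files read unknown, with no map position, and the gene table used holds none of the probe names. The probes are therefore named by their IDs and shown by their sequences, and no role is given to any of them. The identity of the cells could not be checked against marker genes for the same reason.

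The sequences below are the identity of the 11 probes, written 5′ to 3′ as the array files hold them, in the order of their difference between temperatures. Capitals mark the longest run of bases that the probe shares with any other probe of the array on either strand, which bears on cross-hybridisation.
32.A: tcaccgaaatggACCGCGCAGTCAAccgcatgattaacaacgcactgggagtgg
4877.C: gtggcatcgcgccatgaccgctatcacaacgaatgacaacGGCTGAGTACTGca
9516.E: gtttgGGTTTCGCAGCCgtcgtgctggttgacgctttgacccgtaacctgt
6942.C: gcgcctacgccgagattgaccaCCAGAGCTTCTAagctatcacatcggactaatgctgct
9774.E: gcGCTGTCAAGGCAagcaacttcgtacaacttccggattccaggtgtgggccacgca
3802.C: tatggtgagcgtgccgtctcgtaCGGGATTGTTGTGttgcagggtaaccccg
6541.C: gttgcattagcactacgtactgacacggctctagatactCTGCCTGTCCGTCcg
7848.D: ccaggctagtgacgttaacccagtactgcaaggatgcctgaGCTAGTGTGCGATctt
6333.C: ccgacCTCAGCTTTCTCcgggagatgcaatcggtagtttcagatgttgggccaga
2405.C: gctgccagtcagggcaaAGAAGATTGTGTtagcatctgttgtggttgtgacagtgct
8903.D: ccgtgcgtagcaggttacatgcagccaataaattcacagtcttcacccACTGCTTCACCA

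The longest runs that the 11 shared with any other probe were 12 or 13 bases, where the median of all 10000 probes was 12. A longer run than any of the 11 was shared by 1191 probes (11.9%). Probes for separate parts of a transcript need share no bases, so these runs cannot tell whether any of the 11 report the same transcript. Lengths were 51 to 60 bases, within the 45 to 60 of the array. The content of G and C ran from 49.1% to 57.9% with a median of 54.5%, against a median of 55.4% and quartiles of 53.3% and 57.7% over all probes. Of the 11, 3 lay under the lower of these quartiles and 1 above the upper one.

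Reading each probe in the 3 frames of the printed strand, 4877.C and 7848.D held a stop triplet (TAA, TAG or TGA) in all 3, and the other 9 had at least 1 frame without one. Over all probes, 7.54% had a stop triplet in all 3 frames. The pentamer TGTAA, known as the usual polyadenylation signal of Chlamydomonas nuclear messages, was looked for on the printed strand only and occurred in 0 of the 11 and in 2.82% of all probes. These counts describe the oligonucleotides and place none of them in a coding or untranslated part.

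The move from the lower to the top ranks was uncommon, and the mirrored fall was rarer still under the same thresholds. Among the 4618 probes ranked below 50 on all 4 control arrays, the 11 made up 0.238%. Of the 4611 such probes that were ranked on all 8 arrays, the median had a mean heat shock rank of 23.0, and 92 reached a mean rank of 75 or more. Among the 812 probes ranked at least 90 on all 4 heat shock arrays, the 11 made up 1.35%, and 479 had already ranked at least 90 on all control arrays. In the opposite direction, 0 probes went from at least 90 on all control arrays to below 50 on all heat shock arrays. By mean ranks of the groups, 20 probes passed both thresholds upward and 3 downward.

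**Figure D1:**
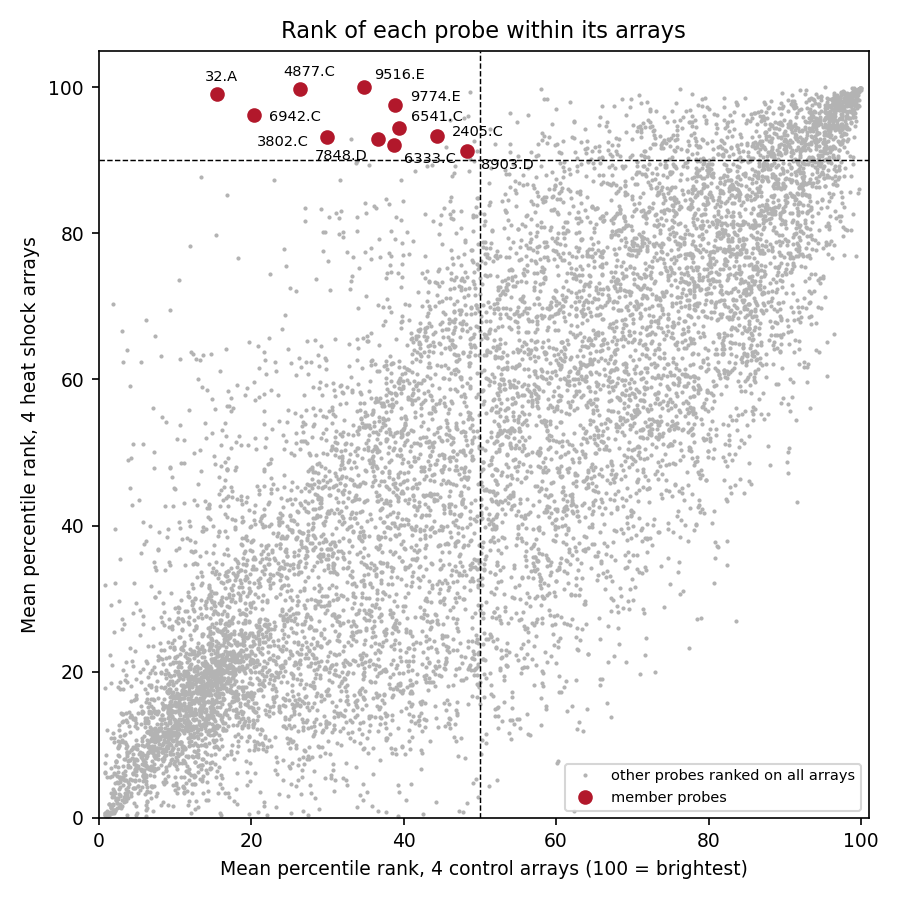
Mean percentile rank of each probe on the 4 control arrays (horizontal) and the 4 heat shock arrays (vertical), with 100 the brightest. Each grey point is 1 probe ranked on all 8 arrays, the 11 labelled red points are the chosen probes, and dashed lines mark ranks 50 and 90. The 11 lie in the upper left, where 20 probes had mean ranks past both thresholds, against 3 in the mirrored corner at the lower right. Grey points in the upper left had mean ranks past both thresholds and missed one of them on at least 1 array.

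The lines drawn by the ranks were close to some probes on either side. Nearest inside were 8903.D, whose highest control rank was 49.9, and 6333.C, whose lowest heat shock rank was 90.1. Nearest outside were 6958.C, with a control rank of 50.5 on replicate 3, and 7736.D, with a heat shock rank of 89.8 on replicate 1. Probe 9984.E also fell outside through 1 array, with control ranks of 47.02, 46.96, 55.1 and 45.6 and heat shock ranks of 99.1 to 99.6. In all, 1 probe met the rule on all control arrays and 3 heat shock arrays, and 5 met it on all heat shock arrays and 3 control arrays.

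The summed signal of the 11 went from almost nothing to a visible share of the light on the array. Most of it on each heat shock array came from 9516.E, 4877.C and 32.A. The 11 held 0.00126% ± 0.00014 (SD, n = 4) of the summed signal of all probes on control arrays and 1.88% ± 0.38 (SD, n = 4) on heat shock arrays. The lowest heat shock share was 1.46%, on replicate 1, and the highest control share was 0.00146%. Probes that reached the scanner's limit are included, which makes the true shares uncertain in both groups. Without saturated probes the heat shock share was 0.820%, since 9516.E and 4877.C then drop out on all 4 arrays and 32.A on 1. On the other arrays 32.A stays in this figure.

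The brightness of whole arrays bears on every value below. The heat shock arrays were dimmer over most probes, with a median signal of 78.0 to 138 against 569 to 765 on control arrays, while the added spike-in RNAs were 0.52 higher (log2). The arrays' 75th percentile fell by 2.88 (log2), so scaling to it raises every heat shock value by that amount relative to the signal as read. Signals are given as read, and differences on both scales and relative to the spike-ins. A spot counts as measured where the files call it well above background, which 25.9% to 34.9% of probes were not on control arrays, so that control ranks below that share carry no order.

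On control arrays 4 of the 11 probes were measured on all 4 arrays, 4 on 3 arrays, and 3802.C, 32.A and 6942.C on 2, 1 and 0. On heat shock arrays all 11 were measured on all 4. The count of measured probes among the 11 was 10, 9, 8 and 4 on control replicates 1 to 4. Control replicate 4 was also the control array with the highest share of unmeasured probes, at 34.9%, and the part of its higher background in this count was not tested.

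**Figure D2:**
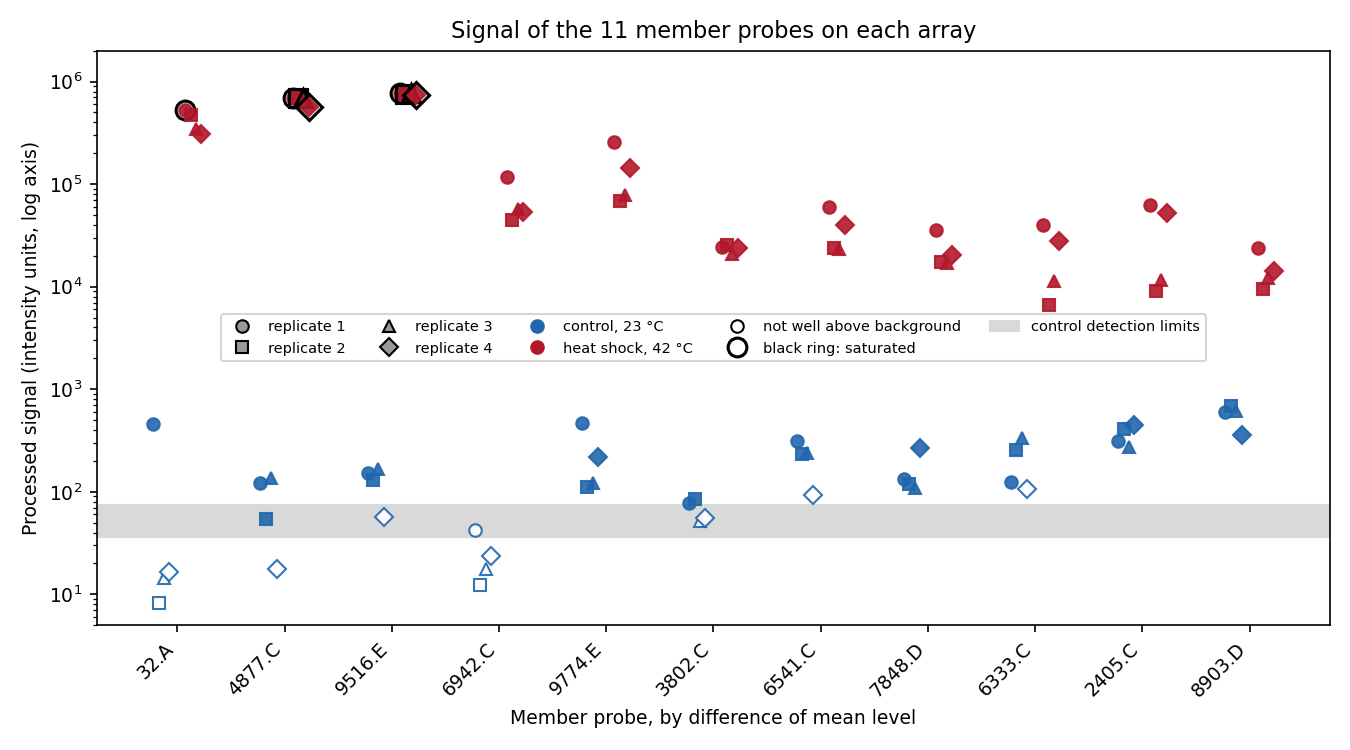
Processed signal (log axis) of the 11 probes on each array, blue for control and red for heat shock, with the marker shape giving the replicate number. Open markers were not well above background, black rings mark saturated spots, and the grey band spans the control arrays' detection limits of 36.2 to 74.4. For every probe all 4 red points lie above all 4 blue points.

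Probe 6942.C went from below detection to a bright signal and did so without meeting the scanner's limit. Its signal was 42.6, 12.4, 17.8 and 23.5 on control replicates 1 to 4, none of them well above background. On heat shock replicates 1 to 4 it was 118564, 44304, 56618 and 53671. The groups were far apart, since the lowest heat shock reading was 596 times the highest control detection limit. The detection limit of an array is its lowest measured signal. Some unmeasured readings lie above it, so folds that use it are no strict lower bounds. With controls raised to these limits, 6942.C was 9004-fold higher relative to the 75th percentile. It was 1225-fold higher in signal as read and 853-fold higher relative to the spike-ins. Relative to the 75th percentile its heat shock levels were alike on the 4 arrays, at 6.17 ± 0.14 (SD, n = 4, log2).

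Probe 9516.E became the brightest or nearly the brightest probe of the heat shock arrays. Its control signals were 153, 131, 167 and 57.2, well above background on all but replicate 4, at ranks of 30.6 to 37.7. Its heat shock signals were 781458, 754676, 774552 and 733262, saturated on all 4 arrays. It took place 1 from the top on heat shock replicates 1 to 3 and place 3 on replicate 4, although saturated probes have no measured order among themselves. The spread of only 1.07-fold over these arrays is that of the scanner's ceiling. With the unmeasured control at the detection limit, 9516.E was 44537-fold higher relative to the 75th percentile. In signal as read it was 6059-fold higher, and saturation holds both values down.

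Probe 4877.C showed the same course from dim to saturated. Its control signals were 122, 54.4, 136 and 17.8, the last of which was not well above background. On the heat shock arrays it read 689669, 692895, 698095 and 564093, again saturated on all 4. The places from the top were 18, 8, 3 and 53. With the unmeasured control at the detection limit, 4877.C was 53505-fold higher relative to the 75th percentile. Relative to the spike-ins it was 5067-fold higher, and saturation holds both values down.

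Probe 32.A was set apart by 1 control array. Its control signals were 457, 8.29, 14.3 and 16.4, measured on replicate 1 only, and the other 3 readings were below their arrays' detection limits. Its heat shock signals were 528498, 471456, 345307 and 305545, of which the first was saturated. These 4 readings ordered the arrays as the spike-ins did. Relative to the spike-ins the heat shock levels were 5.54, 5.58, 5.52 and 5.67 (log2), the first held down by saturation. The part of array brightness in this order was not tested. Control replicate 1 gave the highest control signal for 4 of the 11 probes, 32.A among them, and 4877.C and 9516.E read higher on control replicate 3. The difference of 32.A was 16.56 (log2, 75th percentile) on all arrays, 17.77 without control replicate 1 and 15.89 without control replicate 2. These sizes use control readings that were not well above background and a saturated heat shock array, so they were not measured as such. Raising its unmeasured controls to their detection limits left 32.A 31685-fold higher relative to the 75th percentile and 3001-fold higher relative to the spike-ins.

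Probe 3802.C was the steadiest in signal as read on heat shock arrays among the 8 probes that were not saturated there. Its control signals were 78.4, 84.99, 51.5 and 55.3, of which replicates 1 and 2 were well above background. Its heat shock signals were 24132, 25328, 21063 and 24047, a range of 1.202-fold with no array saturated. Heat shock replicate 1, the heat shock array with the highest median signal, was not the brightest for this probe, which put it at its lowest heat shock rank, 90.4. With the 2 unmeasured controls at the detection limit, the rise was 2330-fold relative to the 75th percentile and 317-fold in signal as read.

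Probe 9774.E was measured on all 8 arrays and varied alike in both groups. Its control signals were 473, 111, 121 and 220 on replicates 1 to 4, a 4.25-fold range. Its heat shock signals were 260372, 68613, 78765 and 143176, a 3.79-fold range in the same order of replicate numbers. The ratio of heat shock to control signal was therefore nearly the same in each of the 4 pairs of equal number, from 551-fold to 651-fold. Of the 4 probes measured on all 8 arrays it kept this ratio within the narrowest range, followed by 8903.D at 13.8-fold to 39.8-fold. Relative to the 75th percentile 9774.E rose from -5.06 ± 0.92 to 7.09 ± 0.34 (SD, n = 4 each, log2), which is 4523-fold, and relative to the spike-ins it was 428-fold higher. What the same-numbered arrays share is not given in the labels.

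Probe 6541.C, printed on 2 spots per array, rose from control signals of 311, 232, 237 and 93.3 to 59365, 23936, 23271 and 40090. The last control value was not well above background, although it lay above the array's lowest measured signal. Its difference was 1248-fold relative to the 75th percentile and 118-fold relative to the spike-ins. Its heat shock levels of 5.27 ± 0.22 (SD, n = 4, log2, 75th percentile) were close on all 4 arrays.

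Probe 7848.D, also on 2 spots, had control signals of 134, 119, 108 and 266 and heat shock signals of 35974, 17600, 17068 and 20590. Control replicate 4 stood above the other controls, and both of its spots read 266. The heat shock levels were among the tightest of the set at 4.63 ± 0.13 (SD, n = 4, log2, 75th percentile), and the difference was 1090-fold, or 103-fold relative to the spike-ins.

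Probes 2405.C and 6333.C split the heat shock arrays in the same way. Probe 2405.C read 316, 406, 275 and 450 on control arrays, all measured, and 63105, 9016, 11601 and 52570 on heat shock arrays. Probe 6333.C read 123, 258, 337 and 107 on control arrays, the last of them not well above background, and 40342, 6700, 11467 and 27732 on heat shock arrays. In both, heat shock replicates 1 and 4 were the bright ones, with a highest-to-lowest range of 6.999-fold for 2405.C and 6.02-fold for 6333.C. Their duplicate spots differed on heat shock arrays by at most 0.16 (log2), as did those of 6541.C and 7848.D, so the spread lay between arrays and not between spots of an array.

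This order of the heat shock arrays was kept on other scales for part of the set. Heat shock replicates 1 and 4 both exceeded replicates 2 and 3 for 6 of the 11 probes in signal as read, for 3 relative to the 75th percentile and for 7 relative to the spike-ins. The 2 bright arrays lay in different rows of the slide. The spike-ins did not follow this order, with means of 13.47, 13.27, 12.88 and 12.55 (log2) on heat shock replicates 1 to 4, and the 75th percentile signal of 1611, 632, 696 and 836 followed it with a smaller gap. The 90th percentile signal of 22221, 6563, 6965 and 11081 on heat shock replicates 1 to 4 followed this order too. The same count was not made over all probes, so the order is not read as a trait of the set. The part of array brightness in it was not tested. The differences of group means were 503-fold for 2405.C and 684-fold for 6333.C relative to the 75th percentile, and 47.6-fold and 64.8-fold relative to the spike-ins. In pairs of equal replicate number the signal ratio of 6333.C ran from 26.0-fold to 328-fold and that of 2405.C from 22.2-fold to 200-fold.

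**Figure D3:**
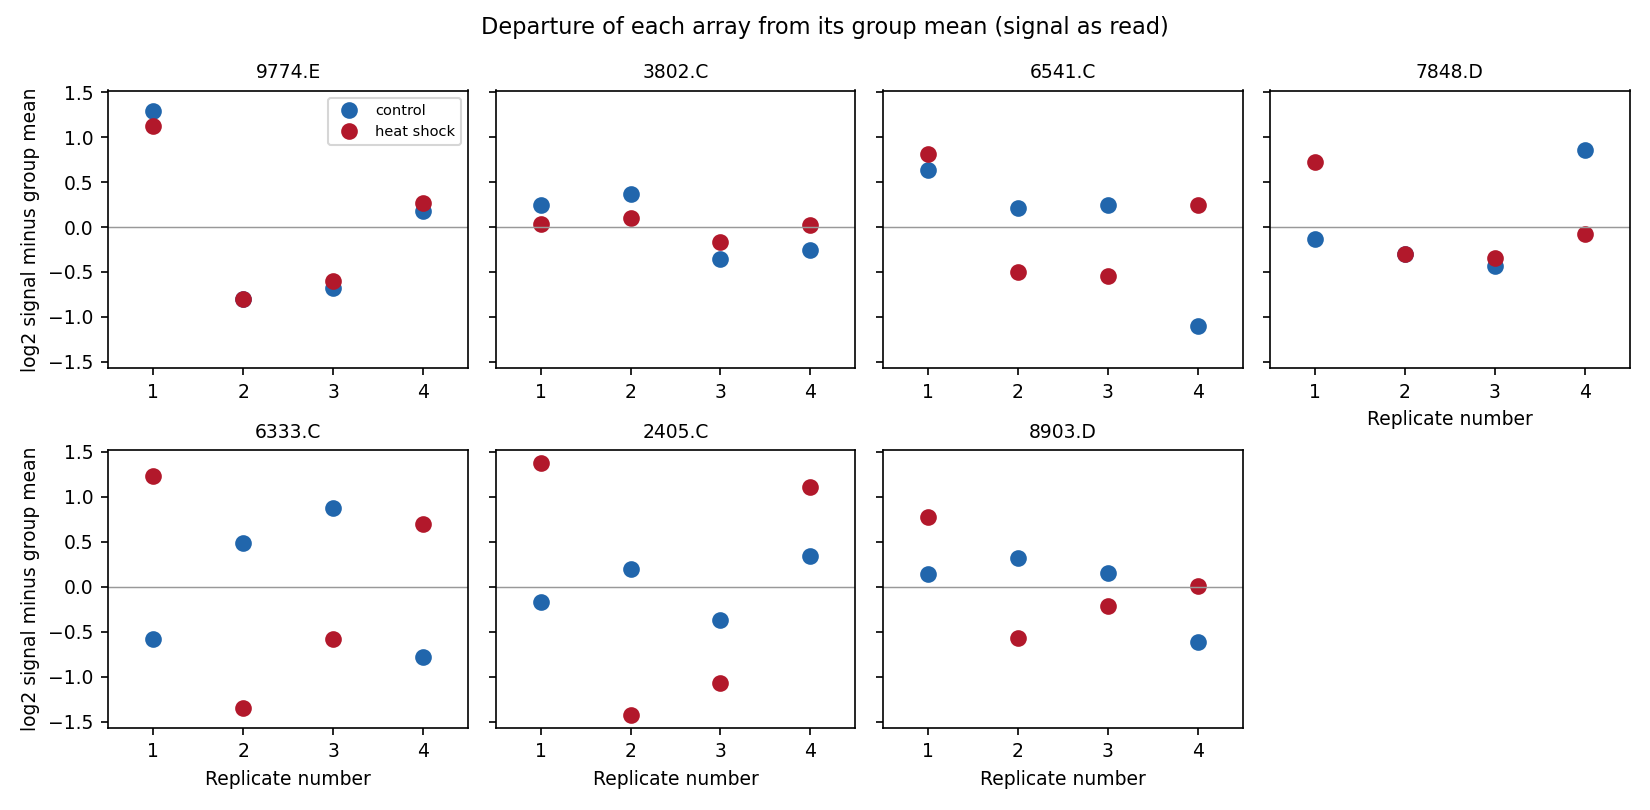
Log2 signal as read minus the mean of its group, for the 7 probes that were unsaturated at heat shock and measured on at least 2 control arrays, against the replicate number, with control arrays in blue and heat shock arrays in red. For 9774.E the 2 groups nearly coincide at each number, for 6333.C and 2405.C heat shock replicates 1 and 4 lie above 2 and 3 while the control points do not follow, and for 3802.C all points lie close to 0. Replicate numbers name arrays and have no order.

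Probe 8903.D had the highest mean control rank and the smallest rise of the set. Its control signals were 604, 685, 607 and 356, all measured, and its heat shock signals were 24065, 9453, 12085 and 14147. The groups were still well apart, with the lowest heat shock array 13.8 times the highest control array. Relative to the 75th percentile its levels went from -3.56 ± 0.26 to 4.00 ± 0.12 (SD, n = 4 each, log2), 189-fold, and relative to the spike-ins it was 17.9-fold higher.

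Over the whole set the difference of group means ran from 7.56 to 16.56 (log2, 75th percentile) with a median of 11.36, where the median of all 6921 tested probes was 0.27. In signal as read the median of the 11 was 8.48, and relative to the spike-ins it was 7.96. By size of difference among tested probes, 32.A, 4877.C, 9516.E and 6942.C took places 1 to 4, 9774.E place 6 and 3802.C place 9. Probes 6541.C, 7848.D, 6333.C, 2405.C and 8903.D took places 12, 13, 21, 30 and 67, so that a rise in rank and a large difference did not pick exactly the same probes. The order within the leading places was not measured, because of saturation and undetected controls there.

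**Figure D4:**
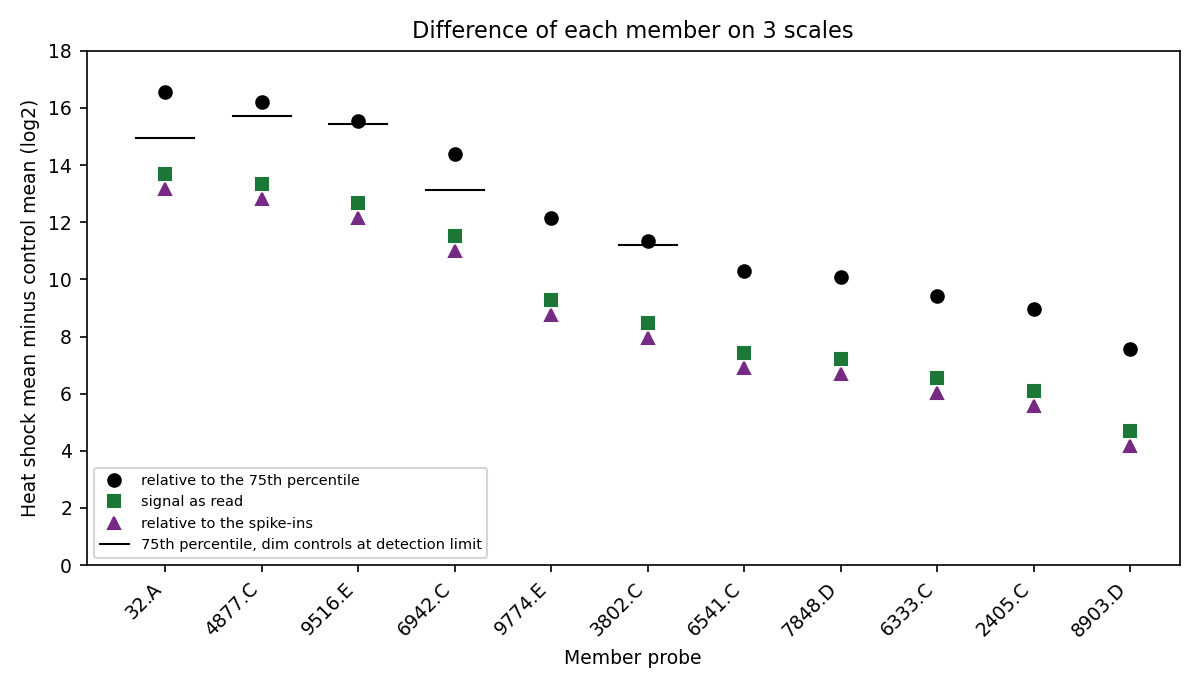
Heat shock mean minus control mean (log2, n = 4 each) of the 11 probes on 3 scales: relative to each array's 75th percentile (circles), in signal as read (squares) and relative to the spike-ins (triangles). Horizontal strokes show the 75th percentile value with unmeasured controls raised to the detection limit, where this changed it. All 11 lie above 0 on each scale, from 4.16 for 8903.D relative to the spike-ins to 16.56 for 32.A.

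Groups did not overlap for any of the 11, whether in level relative to the 75th percentile, in signal as read or relative to the spike-ins. Among tested probes with a value on every array, 37.9% had all heat shock levels above all control levels relative to the 75th percentile, 8.19% in signal as read and 5.73% relative to the spike-ins. All 11 passed the filter for testing on their heat shock arrays alone, and 4 of them would also have passed on their control arrays alone. Over all tested probes, limma (threshold 0.05 on the adjusted p) called 40.7% higher relative to the 75th percentile and 6.82% relative to the spike-ins, and no call is given for the 11. As the ranks that chose the probes come from the same contrast, nothing is read from these counts.

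The control signal can also be read as a percentage of the heat shock signal in the pair of equal replicate number. Of the 44 such pairs of the 11 probes, 24 had a control reading well above background and an unsaturated heat shock reading, and they came from 7 probes. Over these pairs the percentage ran from 0.154% for 9774.E to 7.25% for 8903.D, with a median of 0.767%.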

How the data were processed

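The files are Agilent scanner output of 8 one-colour arrays. Per the file headers, the deposited intensity was made with Feature Extraction 9.5.3.1 and is background-subtracted and detrended within each array, not scaled between arrays. A second deposited table holds log2 values centred on each probe's median, whose making is not given in the sources used here. Other deposited columns flag spots as well above background, saturated or outliers. Outlier spots were left out, log2 intensities were averaged per probe, and probes were ranked within each array. Levels are log2 intensity minus the array's 75th percentile. For folds at the detection limit, an unmeasured control was set to the higher of its value and the array's lowest signal among measured probes. Some unmeasured readings lay above that lowest signal, such as 93.3 for 6541.C on control replicate 4, so these folds are no strict lower bounds. Spike-in scaling used the E1A probes measured and unsaturated on every array. Probes well above background on at least 4 of 8 arrays were tested with limma 3.58.1 in R 4.3.3 (6 residual degrees of freedom, Benjamini-Hochberg, threshold 0.05), tested on simulated data, as background only. The number of arrays limits the precision. Array pairs of equal number deviated together (correlations of 0.12 to 0.27 over probes), so a fit with the replicate number as a block was run as an alternative. The main fit took no pairing. Arrays of equal number also lay in the same row of the slide, and the part of the row in these correlations was not tested. The named probes are, by rule, those with the largest differences, highest heat shock levels, lowest control ranks, largest and smallest control SDs and nearest the thresholds, which covers all 11. The members and lists were chosen with earlier results of these data known. Gene lists and a match of probes to proteins were planned and could not be run, because no annotation used here pairs probes with genes. Plots were drawn with matplotlib 3.10.9.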

Additional observations from a re-analysis of the deposited data

Results flagged for a closer look

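Each level (log2, relative to the 75th percentile) of the 11 probes and of the 6 probes nearest outside the thresholds was examined for 1 array far from the other 3 of its group, as were the set's median level and its share of signal. Of 38 such sets of 4 arrays, 2 held an array apart. Chance would give about 1.9 for independent sets not chosen by their values. The rule used these same arrays and some sets share probes, so nothing is read from that comparison. For 7848.D, control replicate 4 lay at -4.30, with 0.984 of the group's range between it and the nearest control. For 9984.E, which missed the rule through control replicate 3 alone, that array lay at -2.47, with 0.906 of the range as the gap.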

How the results depend on the processing

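The number of probes meeting the rule was 11, and it was 10 with all spots kept and 10 with normexp background correction, which shared 10 and 9 with the 11. Probe 6333.C left in both cases and 8903.D left with normexp, where 6958.C entered. Thresholds on group mean ranks gave 20, control ranks below 40 or 60 gave 4 or 18, and heat shock ranks of at least 95 or 85 gave 5 or 19. Leaving out 1 array gave 11 to 14, where the looser rule can only keep or raise the count. As a replicate block, the rule on a single pair of equal number gave 18, 24, 24 and 23 for pairs 1 to 4, which need agree on only 2 arrays. In limma, with a threshold of 0.05 on the adjusted p, 2820 tested probes rose and 2205 fell relative to the 75th percentile. The replicate block as a term gave 2895 and 2305 and left the median difference of the 11 at 11.36. Spike-in scaling gave 472 and 5213, no filter on dim probes 5273 higher, and a filter on all 8 arrays 1038 lower, with 4 of the 11 tested. Leaving out 1 array gave 2685 to 2817 higher and 2074 to 2229 lower. The median difference of the 11 (11.36) was 9.91 with quantile normalization, 7.96 with spike-in scaling and 9.99 with normexp, and 11.17 to 11.64 without 1 array. All 187 alternative values of the 11 single differences stayed above 0, the lowest at 4.16. The rule that chose the 11 made a change of sign all but impossible, so nothing is read from this count. The summed-signal share was 0.820% without saturated probes at heat shock (1.74% to 2.02% without 1 array), and 0.00194% with normexp or 0.00162% without saturated probes in controls (0.00120% to 0.00130% without 1 array). The match to proteins was not run. Dim controls and the scanner's ceiling limit what can be said of 32.A, 4877.C, 9516.E and 6942.C.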
